A study of Homo sapiens with 6 samples.

Results

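The regions described here are boundaries of topologically associating domains (TADs) that were called in 1 cancer cell line and in none of 3 other lines. Of 10195 boundaries called in 4 Hi-C maps, 682 were of this kind, with 202 in SNU-C1, 181 in HCC1954, 177 in OE33 and 122 in SW480. They made up 4.75% of the 2566 boundaries of SW480, 7.55% of the 2674 of SNU-C1, 6.99% of the 2589 of HCC1954 and 7.48% of the 2366 of OE33. In each map, the contacts that cross a 40-kb bin within a 1-Mb window were summed and compared with the sum expected at the same distances, and the log2 of this ratio relative to the mean of the chromosome is called insulation, so that low values mean few crossing contacts. A boundary was a local minimum of insulation on chromosomes 1 to 22 whose strength was at least 0.1, where strength follows the difference between the mean insulation of the 200 kb to the left and to the right, and is the fall of that difference from its peak before the minimum to its trough after it. A boundary belonged to the set when no boundary of each other line lay within 3 bins (120 kb) of it. The boundaries were thus selected on insulation and strength, and both are given as description, without a test.

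SW480 and SNU-C1 are colon cancer cell lines, HCC1954 is a breast cancer cell line and OE33 is an oesophageal adenocarcinoma line. None of them carries a treatment or an engineered change in the labels, and the maps hold no expression values by which the tissue of origin could be checked. In situ Hi-C with the restriction enzyme MboI gave 1 map for each line and, for SW480, also a map of each of its 2 replicates, which add up to the SW480 map without a replicate number at 99.8% of 3157730 bin pairs within 2 Mb. Depth, in read pairs within chromosomes, ranged from 87123995 for OE33 and 89611337 for HCC1954 to 111654971 for SNU-C1 and 128424710 for SW480. No test across samples was run, because SW480 was the only line with replicate maps, and intervals given for shares are exact 95% binomial intervals (Clopper-Pearson) that cover counting error only.

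A TAD is a stretch of chromosome whose loci contact each other more often than they contact loci outside it. Loop extrusion by the cohesin complex, halted at DNA bound by the zinc-finger protein CTCF, is the best known way in which such domains form, and their boundaries are rich in CTCF sites and in promoters of active genes. Most boundaries recur in many cell types, and rearrangements such as deletions, inversions and amplifications can remove them or bring new ones into being.

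Short sequences that match the core of the CTCF motif are shown for the strongest of these boundaries, because CTCF is the protein most often found at boundaries. Among the 20 boundaries with the 5 highest strengths of each line, 8 held 9 matches in the boundary bin, and those of 7 boundaries are shown. Each line below gives the line, the start and end of the core in GRCh37, which is the build of the bins, and the strand. The 30 bases are written 5′ to 3′ on the strand of the match, with the 12 bases of the core in capitals.
SW480, chr1:153467557-153467568, minus strand: caagattggCCAGCAGGGGGCggagtagac
SNU-C1, chr6:134268738-134268749, plus strand: atcaacctgCCACCAGATGGCtggttcatt
SNU-C1, chr2:105854581-105854592, minus strand: tatgtgcgaCCACCAGGGGGCgcgctgggg
HCC1954, chr20:54746324-54746335, minus strand: ttttaggttCCACCAGAGGGCacaggctgc
HCC1954, chr12:40384502-40384513, minus strand: gcacagctgCCACTAGGGGGCaatggaggc
HCC1954, chr1:7813059-7813070, minus strand: attacatgaCCAGCAGAGGGCaccagctat
HCC1954, chr1:7815697-7815708, minus strand: gcctatggtCCACCAGGGGGCtttagacag
OE33, chr16:74487215-74487226, minus strand: taggtggccCCAGCAGATGGCttctctgat
All 4 lines are represented. Both matches on chromosome 1 of HCC1954 lie in a single boundary bin, whose right neighbour holds the start of PER3, a component of the circadian clock. These letters are those of the reference and not of the cell lines. A match is a stretch of reference sequence and not an observed CTCF site, and 9 of the 20 boundaries had no match in the bin or in either neighbouring bin.

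Boundaries called in a single line were weaker than those found in all lines. Their median strength was 0.43 in OE33, 0.38 in SW480, 0.35 in HCC1954 and 0.33 in SNU-C1, whereas boundaries called in all 4 lines had medians of 0.79, 0.75, 0.80 and 0.81. Strength was below 0.2 at 139 of the 682 and at least 0.5 at 233, and the highest value was 2.79, in OE33. Of the boundaries nearest to the threshold, the weakest one kept had a strength of 0.104 in SW480, 0.102 in OE33, 0.101 in HCC1954 and 0.101 in SNU-C1. The strongest minima left out for strength had values of 0.0989, 0.0904, 0.0985 and 0.0949. On the distance side, 215 further boundaries had their nearest counterpart exactly 3 bins away and were counted as shared, while 157 at exactly 4 bins were counted as specific to their line.

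Another line often had a boundary within a few bins of these regions, as is also true of bins in general. The nearest other-line boundary lay at 160 to 200 kb for 258 of 682 (37.8%), at 240 to 400 kb for 257 and beyond 400 kb for 167 (24.5%), with a median of 280 kb and a maximum of 1280 kb. Of measured bins with no boundary of the other lines within 3 bins, 29.2% had the nearest at 160 to 200 kb, 42.7% at 240 to 400 kb and 28.1% beyond 400 kb. Strength followed this order, with medians of 0.53, 0.34 and 0.26 in the 3 classes. The strongest members were thus mostly boundaries that lay a few bins from one of another line, and 18 of the 20 strongest had another line's boundary at 160 to 200 kb. SNU-C1 had the highest share beyond 400 kb, with 67 of 202 (33.2%), and OE33 the lowest, with 32 of 177 (18.1%). At 64 of the 682, another line had a minimum within 3 bins that was too weak to be called.

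The mean insulation dipped less at these regions than at boundaries of all lines, and a smaller dip was present in the lines where no boundary was called. From the mean of the bins 400 kb away on each side to the boundary bin, insulation in the line with the call fell by 0.28 in OE33, 0.24 in HCC1954, 0.23 in SW480 and 0.22 in SNU-C1. At the same bins, the mean of the other 3 maps fell by 0.10, 0.07, 0.12 and 0.05. At boundaries of all 4 lines the dip in the own map measured -0.53, -0.54, -0.50 and -0.55. The dips at 1-line boundaries were part of their choice and carry no weight as evidence. Between the previous and the next boundary of the same line lay a median of 1800 kb at 1-line boundaries and of 1760 kb at boundaries of all lines.

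**Figure D1:**
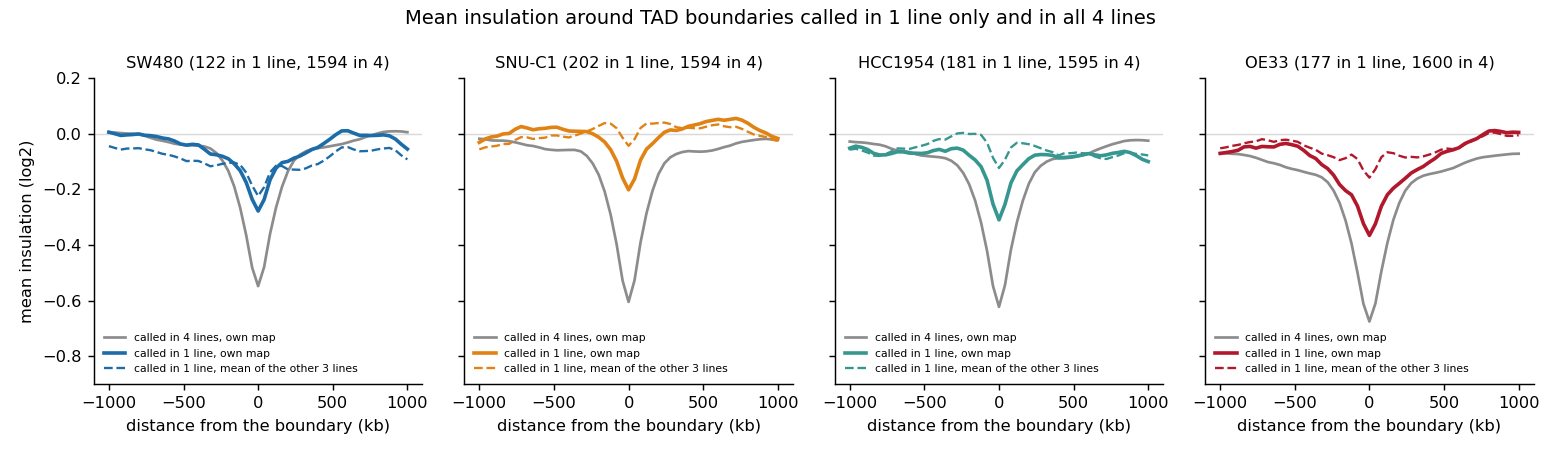
Mean insulation (log2, y axis) against distance from the boundary in kb (x axis) in 1 panel for each line. Boundaries called in that line only are drawn in the map of the line itself and as the mean of the other 3 maps. Boundaries called in all 4 lines are drawn in the map of the line itself. In every panel the dip of the 1-line boundaries is deepest in the own map (0.22 to 0.28) and shallower in the other lines (0.05 to 0.12).

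A call in 1 line only did not mean that this line had the lowest insulation there. The own map had the lowest value of the 4 lines at 354 of 682 boundaries (51.9%), made up of 104 in SNU-C1, 103 in OE33, 98 in HCC1954 and 49 in SW480. These are 58.2% of the members of OE33, 54.1% in HCC1954, 51.5% in SNU-C1 and 40.2% in SW480. The lines also differed in this over all measured bins, where OE33 was the lowest at 36.6%, SW480 at 22.3%, HCC1954 at 21.6% and SNU-C1 at 19.4%. At boundaries called in all lines the share was 45.6% for OE33 and 14.7% for SW480. At 259 the own value lay below that of each other line by more than 0.084, the 99th percentile of the difference between the SW480 replicates over 60444 bins. The 259 are 38% of the members, against 13.8% of measured bins. This spread is known for SW480 only, and insulation varied more over bins in the other lines (SD 0.41 to 0.54) than in SW480 (0.37). A distance of at least 0.2 was reached at 138 and of at least 0.5 at 28, made up of 12 in OE33, 10 in HCC1954, 5 in SNU-C1 and 1 in SW480, which is 20.2 and 4.11% against 5.74 and 0.725% of bins. A distance of at least 0.5 was also unevenly spread over the bins, with 1.78% in OE33, 0.872% in HCC1954, 0.137% in SNU-C1 and 0.111% in SW480, so the order of the lines in the counts is that of the bins. Since the boundaries were selected on insulation, nothing is read from these shares. The plot of strength against the difference to the lowest other line shows that strong members lay on both sides of 0, so that strength alone did not separate them.

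**Figure D2:**
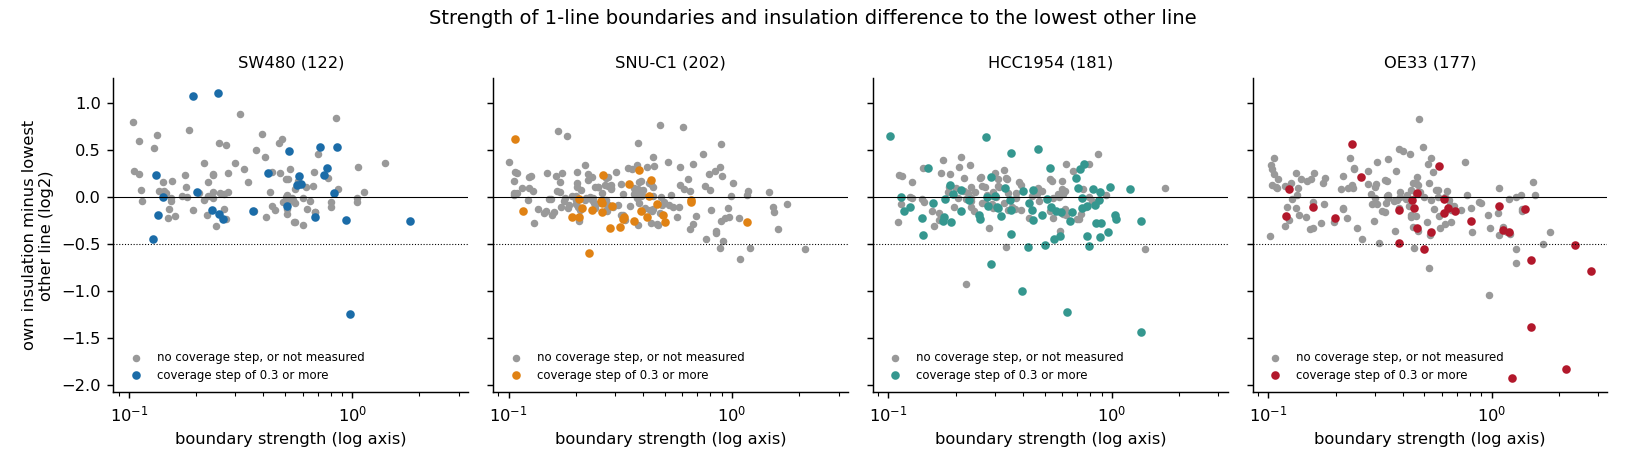
Own insulation minus the lowest insulation of the other 3 lines (log2, y axis) against boundary strength (x axis, log axis) for each 1-line boundary, in 1 panel for each line, with points marked by coverage step. Points below 0 are the 354 boundaries where the own line was lowest, and the 28 at or below the dotted line at -0.5 include 16 with a coverage step.

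SW480 was the only line in which a call could be looked for in replicates. Of its 122 boundaries, 97 (79.5%, interval 71.3 to 86.3%) were called within 3 bins in both replicates, 12 in replicate 1 only, 11 in replicate 2 only and 2 in neither. Since the replicates are the parts of the map that chose these boundaries, the choice was also made in 1 replicate against the other 3 lines and followed in the other. Of 129 boundaries chosen in replicate 1, 99 (76.7%) were found in replicate 2, and of 118 chosen in replicate 2, 96 (81.4%) were found in replicate 1. Those shares lay below the 95.6 and 96.1% of all boundaries of each replicate, and below the 98.6 and 98.7% of boundaries that the other 3 lines shared. They lay above the 29.6% of all measured bins that had a boundary of replicate 2 within 3 bins. By strength, those found in both replicates were 23 of 30 below 0.2 and 41 of 49 at 0.5 or more. Insulation at the 122 bins differed between replicates by a median of 0.019 and at most 0.11. The median difference from the mean of the other lines was 0.18 there and 0.12 over all measured bins of SW480, and the first rests on values that chose the members. Among the 560 boundaries of the other 3 lines, 39 had a boundary within 3 bins in 1 SW480 replicate that the SW480 map lacked, and 0 had one in both.

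Coverage changed at some of these boundaries. Read pairs per bin, relative to the line's median and then to the other 3 lines, follow copy number in Hi-C data from cancer cells, and a step was counted where the median of the 10 bins on the left and on the right differed by at least 0.3 in log2. HCC1954 had the highest share, with a step at 76 of 177 measured boundaries (42.9%, interval 35.5 to 50.6%). Steps were also most frequent in HCC1954 over all measured bins (23.4%) and at its boundaries of all lines (30.7%). SW480 had 26 of 122 (21.3%, interval 14.4 to 29.7%) against 10.8% of bins, SNU-C1 30 of 201 (14.9%, interval 10.3 to 20.6%) against 12.8%, and OE33 30 of 176 (17.0%, interval 11.8 to 23.4%) against 16.0%. The intervals of HCC1954 and SW480 thus lay above the share of all bins, and those of SNU-C1 and OE33 included it. Boundaries of all lines carried a step at 13.5% in SW480, 16.0% in SNU-C1 and 22.1% in OE33. At the bins of the HCC1954 boundaries, the relative coverage of the other lines had a step at 15.3% in SW480, 15.3% in SNU-C1 and 20.9% in OE33, also above their shares of all bins. At those of SW480, the coverage had a step at 23.8% in HCC1954, 22.1% in OE33, 21.3% in SW480 itself and 14.8% in SNU-C1. Over all bins the shares of these lines were 23.4, 16.0, 10.8 and 12.8%.

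The steps were unevenly spread over chromosomes. In HCC1954 they were found at 11 of 20 boundaries of chromosome 8, against 34.2% of its bins, at 6 of 7 of chromosome 20, against 28.8%, and at 5 of 8 of chromosome 21, against 53.3%. Chromosome 15 of SNU-C1 had steps at 7 of 13 boundaries, against 41.8% of its bins, and chromosome 17 of OE33 at 5 of 10, against 33.0%. Boundaries called in 1 line only were 8 of the 30 boundaries (26.7%) called on chromosome 21 of HCC1954, 20 of 131 (15.3%) on its chromosome 8, 13 of 82 (15.9%) on chromosome 15 of SNU-C1 and 10 of 70 (14.3%) on chromosome 17 of OE33, whereas chromosome 13 of HCC1954 had 0 of 67.

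Over all lines together, boundaries with a step were more often the lowest of the 4 lines. The own insulation was lowest at 113 of 162 with a step (69.8%) and at 237 of 514 without one (46.1%), and the median difference from the mean of the other lines was -0.26 with a step and -0.11 without. The shares were 80 and 46.2% in SNU-C1, 69.7 and 42.6% in HCC1954, and 83.3 and 52.7% in OE33. In SW480 they were close, at 11 of 26 with a step (42.3%) and 38 of 96 without (39.6%). This comparison is a description, since insulation chose the boundaries and iterative correction divides by factors that follow coverage. The part of copy number in these calls was not tested.

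Contacts over long distances that were specific to a line were counted for pairs of 200-kb blocks at least 2.2 Mb apart, with an observed value at least 4 times that expected at the distance and 4 times the highest other line. Such contacts can arise where rearrangement brings distant pieces of a chromosome together. They touched the block of the boundary or an adjacent block at 97 of 679 measured boundaries (14.3%). By line these were 17 of 122 in SW480 (13.9%), 28 of 200 in SNU-C1 (14%), 30 of 180 in HCC1954 (16.7%) and 22 of 177 in OE33 (12.4%). The shares over all measured bins were 10.4, 11.4, 10.9 and 14.3%, and HCC1954 had an interval of 11.5 to 22.9%. On the chromosomes with the most of these boundaries, many bins had such contacts as well. The contacts touched 11 of 12 measured boundaries of chromosome 15 in SNU-C1, against 80.1% of its bins, and in HCC1954 8 of 8 on chromosome 21, against 95.5%, and 11 of 20 on chromosome 8, against 38.2%. In SW480 they touched 7 of 14 on chromosome 3, against 42.7%. In OE33 they were spread more widely, with the most on chromosome 5, at 5 of 13 boundaries against 25.35% of its bins. Without chromosomes 8 and 21, left out because they held the most such contacts, 11 of 152 boundaries of HCC1954 (7.24%) had one, against 8.21% of bins. That choice was made after seeing the data and itself lowers the share, so nothing is read from it.

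Gene starts and CTCF core matches were less frequent than at boundaries of all lines and, over all 4 lines together, more frequent than in all bins. A protein-coding gene started in the boundary bin or a neighbour at 329 of 682 (48.2%, interval 44.4 to 52.1%), against 41.4% of measured bins and 68.6% of boundaries called in all 4 lines. OE33 had the highest share (55.4%, interval 47.7 to 62.8%) and SNU-C1 the lowest (43.1%), and the intervals of SNU-C1, HCC1954 and SW480 included the share of bins. Matches to the CTCF core motif, searched on both strands, were present in the same 3 bins at 44% (interval 40.2 to 47.8%), against 33.2% of measured bins and 56.9% of boundaries of all lines, and the interval of OE33 (32.3 to 47.2%) included the share of bins. In the boundary bin alone the shares were 21, 13.2 and 28.5%. The measured bins also cover positions near boundaries of other lines, where no boundary of the set can lie. An interval that includes their share thus does not show that a line resembles the bins open to it. Over all lines, both features became less frequent with the distance to the boundaries of other lines, as they did among bins in general. Gene starts were present at 55.0% of those with another line's boundary at 160 to 200 kb, at 52.5% of those at 240 to 400 kb and at 31.1% of those beyond 400 kb, and motif matches at 49.6, 42.8 and 37.1%. Among bins at these distances the shares were 43.6, 33.2 and 18.5% for gene starts and 31.0, 27.6 and 20.9% for motif matches. For both features, these shares lay below those of the boundaries of every line at the same distance, which was not tested. Single lines did not all follow the decrease with distance. The motif share went in SW480 from 50 to 56.1% between the first and the second of these distances and in SNU-C1 from 38.2 to 41.8% between the second and the third, and from the first to the second the share with gene starts was 58.2 and 59.1% in OE33 and 52.5 and 52.6% in SNU-C1. GC content had a median of 39.7%, equal to that of all bins, and was 41.1% at boundaries of all lines.

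Chromosomes also divide into active A and inactive B compartments, read from an eigenvector of the contact matrix whose sign was set so that positive values follow gene starts. For each line and chromosome, the one of the leading eigenvectors that best followed gene starts was taken. The mean over the nearest 200-kb blocks was taken on the left and on the right of the boundary's own block. Its sign differed between the sides at 20.2% of the 1-line boundaries (interval 17.3 to 23.5%). This was so at 19.7% of all measured bins and 29.4% of boundaries of all lines. In the lines without the call, 16.8% of the same positions had a sign change. The interval of the 1-line boundaries thus included the share of all bins. Those bins also cover positions near boundaries of other lines, where no 1-line boundary can lie.

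**Figure D3:**
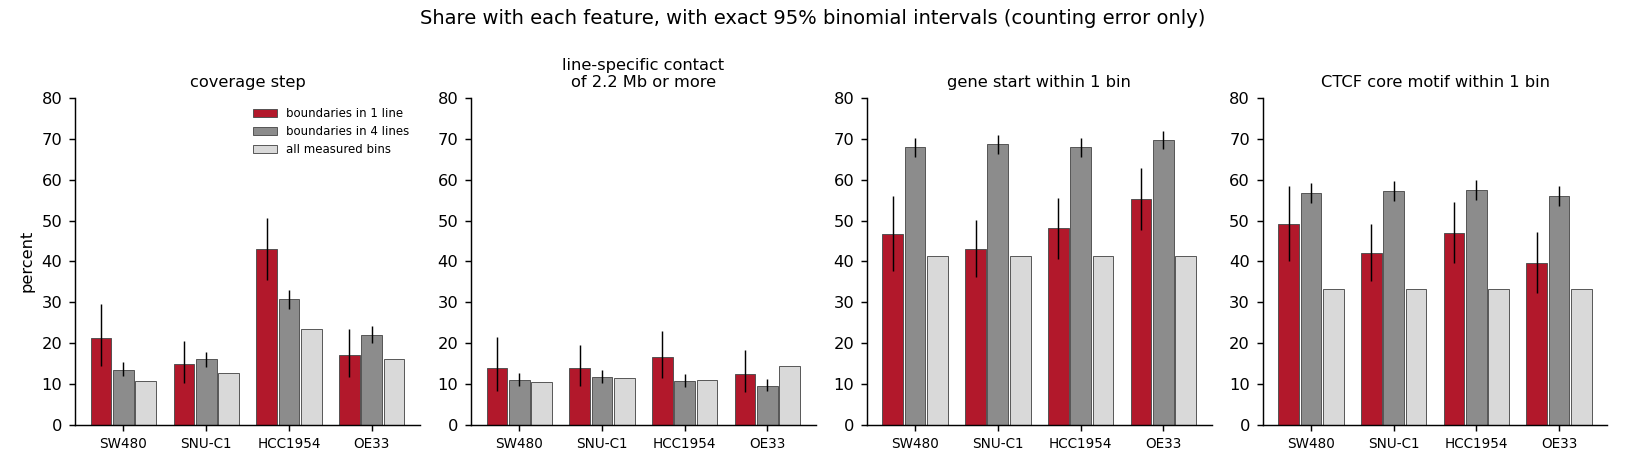
Share in percent (y axis) of 1-line boundaries, of boundaries called in all 4 lines and of measured bins that carried a coverage step, a line-specific long-range contact, a protein-coding gene start or a CTCF core motif match, in 1 panel for each feature with the lines on the x axis and exact 95% binomial intervals as error bars on the boundaries. Coverage steps are most frequent in HCC1954 (42.9% against 23.4% of bins), and in SW480 they also lie above the bins (21.3 against 10.8%). Gene starts of 1-line boundaries lie below those of shared boundaries in every line.

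The strongest boundaries of SW480 were called in both replicates. The highest strength, 1.82, was found at chr12:58320001-58360000, next to the bin in which ATP23, a mitochondrial protease, has its start, and 190 kb from the start of CDK4, which drives entry into the cell cycle. Insulation there was -1.89 in SW480 (-1.89 in both replicates), -1.64 in OE33, -1.56 in SNU-C1 and -1.26 in HCC1954. All lines were thus well insulated in this bin, and a boundary of another line lay 160 kb away. The others were at chr2:200560001-200600000 (strength 1.40), chr5:157400001-157440000 (1.13), chr1:153440001-153480000 (1.06), next to genes of the S100 calcium-binding family including S100A7 and S100A6, and chr5:101640001-101680000 (1.05), next to the organic anion transporter gene SLCO4C1. At those of chromosomes 1 and 2 and at chr5:157400001-157440000, another line had a lower insulation than SW480. Without correction SW480 was the lowest on chromosome 1 and no longer at chr5:101640001-101680000.

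The clearest difference of SW480 lay elsewhere, on the long arm of chromosome 5, at a boundary chosen after its values were seen. At chr5:93800001-93840000, insulation was -1.17 in SW480, with -1.16 in replicate 1 and -1.18 in replicate 2, against 0.07 in OE33, 0.11 in SNU-C1 and 0.31 in HCC1954. SW480 alone was low there, by more than 1.2 on the log2 scale, and no gene started in the 3 bins. The square of crossing contacts held 4702 read pairs in SW480 (interval 4569 to 4838), against 6358 in OE33, 6387 in HCC1954 and 9008 in SNU-C1, whose maps held fewer read pairs in all. Relative coverage rose by 0.68 in log2 across the boundary in SW480. The compartment eigenvector, in units of its SD over the chromosome, went from -1.08 on the left to 1.21 on the right in SW480, whereas both sides were negative in the other 3 lines. On this chromosome eigenvector 2 was used for SNU-C1 and eigenvector 1 for the other lines. Their correlation with gene starts ranged from 0.32 in HCC1954 to 0.44 in SNU-C1.

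In SNU-C1 the strongest boundary had a strength of 2.11 and lay at chr15:43880001-43920000, at the starts of STRC (stereocilin, of the inner ear), CKMT1B (a mitochondrial creatine kinase) and PPIP5K1 (an inositol phosphate kinase). Insulation measured -1.56 in SNU-C1, -1.0 in OE33, -0.45 in HCC1954 and -0.45 in SW480. This bin was among those left out for coverage below 0.25 of the median in a line, as were those of 3 other boundaries, so that its own contacts were not used and its value comes from the bins around it. Over the left-out stretch, from 40 kb on its left to 120 kb on its right, SNU-C1 stayed nearly flat between -1.54 and -1.56, and it was lower, at -1.66, 160 kb to the right. Near that bin the other lines had local minima as well, of -1.11 in OE33 and -0.62 in SW480 at 200 kb and of -0.66 in HCC1954 at 240 kb. STRC and CKMT1B have near-identical copies close by, where reads are hard to place. The next were chr3:157200001-157240000 (strength 1.77), next to VEPH1, chr6:134240001-134280000 (1.60), at TBPL1 and next to TCF21, a transcription factor of mesoderm, chr9:114160001-114200000 (1.54), with no gene start, and chr2:105840001-105880000 (1.53), at the orphan receptor gene GPR45. SNU-C1 had the lowest insulation at all 5, by 0.07 to 0.56, but on chromosome 9 not with a 480-kb window, where it was -0.80 in SNU-C1 and -0.90 in OE33.

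The 5 strongest boundaries of HCC1954 were at chr9:109960001-110000000 (strength 1.72), chr20:54720001-54760000 (1.41), chr12:40360001-40400000 (1.35), chr2:7160001-7200000 (1.34) and chr1:7800001-7840000 (1.21). Only the last had gene starts in the bin or a neighbour, those of PER3 and of VAMP3, a protein of vesicle fusion. Among all 181 1-line boundaries of HCC1954, 48.1% had a gene start there. Of those with a strength of at least 0.5, 62.5% had one. The largest difference to the other lines was that of chromosome 12. Insulation there was -1.50 in HCC1954, -0.07 in SW480, 0.21 in SNU-C1 and 0.15 in OE33, and relative coverage in HCC1954 rose by 2.54 in log2 across the boundary. Without iterative correction the difference was lost, with -0.42 in HCC1954, -0.39 in SW480, -0.38 in OE33 and 0.25 in SNU-C1. A motif match printed above lies in this bin. On chromosome 9 the values were -0.73 in HCC1954 and -0.82 in SW480, so that HCC1954 was not the lowest there, although it was with a 480-kb window (by 0.10) and without correction (by 0.30). On chromosome 20 HCC1954 was not the lowest without correction, at -0.56 against -1.19 in OE33. On chromosome 1 it was not the lowest with a 480-kb window, at -0.62 against -0.77 in OE33.

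OE33 had the highest strengths of the set. At chr16:74480001-74520000 strength was 2.79 and insulation -2.33 in OE33, against -1.48 in SW480, -1.19 in SNU-C1 and -1.55 in HCC1954. The bin to its left holds the start of CLEC18B, a lectin gene with near-identical copies on the same chromosome, and the square of crossing contacts held 813 read pairs (interval 758 to 871), the fewest of all 682. Strength was 1.83 at chr5:52160001-52200000, without a gene start nearby, and 1.69 at chr12:105520001-105560000, next to ALDH1L2, a mitochondrial enzyme of folate metabolism, and WASHC4.

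Chromosome 17 of OE33 held a pair of boundaries with large insulation differences. At chr17:40040001-40080000, by the starts of ACLY (which makes cytosolic acetyl-CoA), ODAD4 and KLHL11, strength was 2.15 and insulation -2.59 in OE33, against -0.63 in SW480, -0.76 in SNU-C1 and -0.72 in HCC1954. A second boundary lay 680 kb to its left, at chr17:39360001-39400000, among keratin-associated protein genes of the KRTAP9 group, and was chosen after its values were seen. Insulation there was -1.23 in OE33 and 0.74 in SW480, 0.75 in SNU-C1 and 0.69 in HCC1954. Relative coverage in OE33 rose by 4.81 in log2 at the left boundary and fell by 4.20 at the right one. Without iterative correction the difference to the lowest other line shrank from -1.92 to -1.13 at the left boundary and from -1.83 to -0.44 at the right one, and OE33 was still the lowest. In OE33 coverage was thus higher on the inner side of both boundaries, and the parts of copy number and of folding in this pair cannot be told apart.

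**Figure D4:**
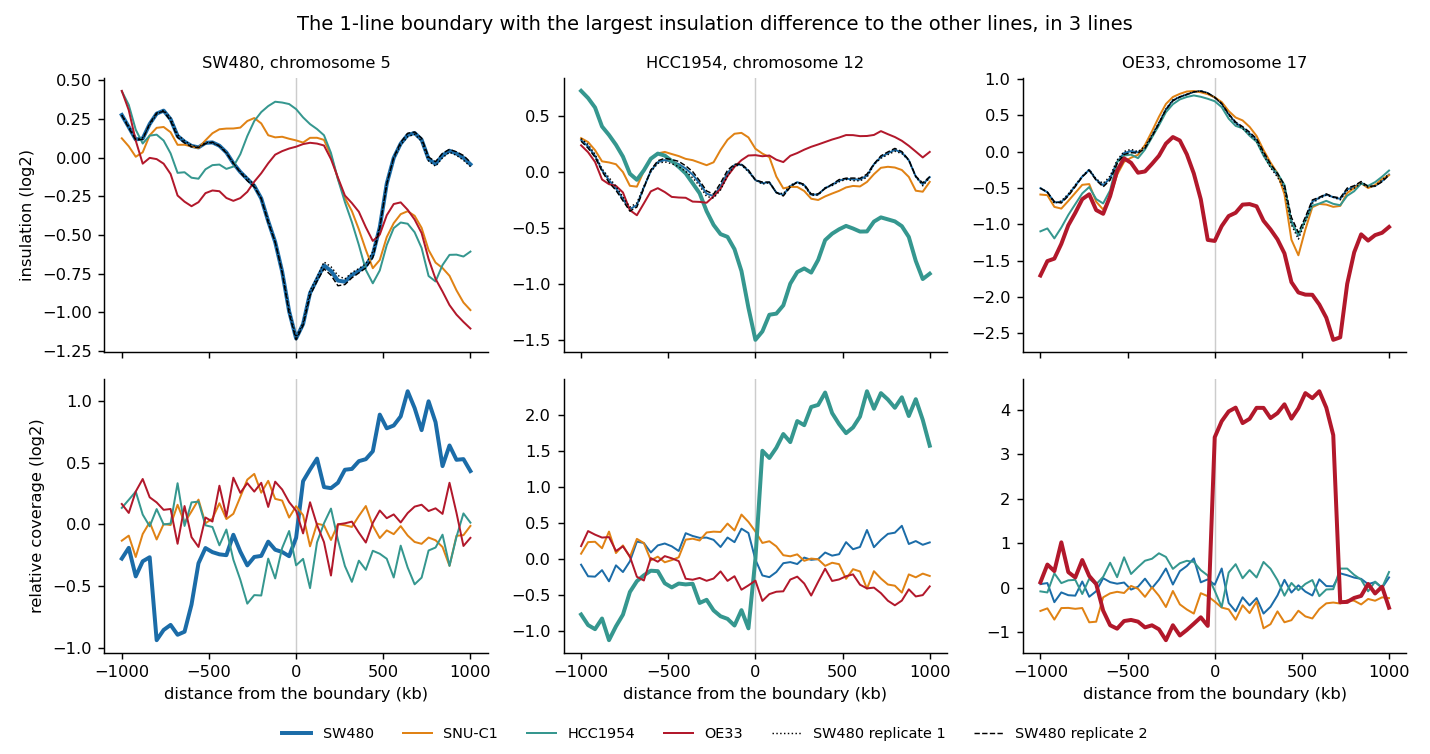
Insulation (log2, upper row) and relative coverage (log2, lower row) against distance from the boundary in kb (x axis) for the boundary with the largest insulation difference of SW480, HCC1954 and OE33, on chromosomes 5, 12 and 17, with 1 curve for each of the 4 lines and the SW480 replicates as thin lines. The own line dips alone at 0 kb, and its coverage steps at the same place (0.68, 2.54 and 4.81 in log2). The boundary of SNU-C1 with the largest difference, on chromosome 15, is not shown, and OE33 was low there as well (-1.0).

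Of the 28 boundaries whose insulation lay at least 0.5 below that of every other line, 16 had a coverage step, 7 a line-specific long-range contact and 20 at least 1 of both. Over all measured bins of the 4 lines the shares were 15.7, 11.8 and 25%. By line, steps were at 7 of 10 in HCC1954, 7 of 12 in OE33, 1 of 5 in SNU-C1 and 1 of 1 in SW480. The bins of these lines had steps at 23.4, 16.0, 12.8 and 10.8%. Long-range contacts were at 4 of 10 in HCC1954, 3 of 5 in SNU-C1, 0 of 12 in OE33 and 0 of 1 in SW480. The 28 were picked on insulation, which also chose the members, and the counts are given as a description.

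The genes of the lists of cancer, tissue and folding genes had 8 of these boundaries nearby, at 7 genes. Within 200 kb of the gene start they were found at 5 of 31 cancer driver genes, at 1 of 9 genes of common fragile sites, at 1 of 14 genes of mammary epithelium, and at 0 of 14 intestinal genes, 0 of 12 genes of foregut and squamous epithelium and 0 of 5 genes of chromatin folding, such as CTCF itself. Of all 19229 protein-coding genes, 10.5% lay as close to one. MYC, which codes for a growth-promoting transcription factor, was the only listed gene with 2. In OE33 a boundary of strength 0.26 lay 7.68 kb from its start, and in HCC1954 one of strength 0.28 lay 152 kb from it. Insulation at the OE33 boundary was -0.01 in OE33, 0.73 in SW480, 0.40 in SNU-C1 and -0.22 in HCC1954, so HCC1954 was lower than OE33. Relative coverage, here as a ratio and as the median over the boundary bin and the 11 bins on each side, was 0.58 in OE33, 0.63 in SNU-C1, 1.68 in HCC1954 and 3.66 in SW480.

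The remaining listed genes had 1 boundary each. SW480 had one of strength 0.19 at 115 kb from TERT, the catalytic subunit of telomerase, with an insulation of -0.19 in SW480 and -1.26 in HCC1954. Without iterative correction HCC1954 was instead the highest of the lines there (0.74), SNU-C1 the lowest (-1.04), and SW480 measured -0.38. The CDK4 boundary of SW480 is described above. For the mediators of TGF-β signalling, SMAD4 had a boundary of SNU-C1 (strength 0.30, 65.1 kb away) and SMAD2 a boundary of OE33 (strength 0.53, 82 kb away). At both, another line had an insulation lower than the line with the call. SPDEF, an ETS factor of secretory epithelium, had the weakest boundary of SNU-C1, of strength 0.10. SNU-C1 was not the lowest there with a 480-kb window (-0.23, against -0.50 in OE33) or without correction (-0.39, against -0.48 in HCC1954). MACROD2, at a common fragile site, had a boundary of OE33 with a strength of 1.37 at 116 kb. OE33 was the lowest there with a 480-kb window (-0.86), but not without correction (-0.81, against -0.84 in SNU-C1).

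The number of boundaries called in 1 line depended little on most settings, but which boundaries they were changed much more. Members were followed under 5 other settings, counting those still called in that line only within 3 bins. With read pairs of every map thinned to the number of the shallowest line, 628 of 682 remained (92.1%), and with a stricter filter on low bins 510 (74.8%). Without iterative correction 281 remained (41.2%), with a delta span of 3 bins 245 (35.9%) and with a window of 480 kb 158 (23.2%). Only 28 (4.11%) remained under all 5, with 11 in OE33, 9 in SNU-C1, 7 in HCC1954 and 1 in SW480. The boundary itself was kept more often than its status, as 637 were still called in their own line with a delta span of 3 bins, 478 with a window of 480 kb and 466 without correction.

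Of the 20 boundaries with the 5 highest strengths of each line, 5 remained with the 480-kb window, 7 without correction and 1 under all 5 settings. Both boundaries around the segment of chromosome 17 in OE33 were among the 28 of the whole set that remained throughout. The one on chromosome 5 of SW480 remained in 4 of 5 settings and was lost with the delta span of 3 bins, and that on chromosome 12 of HCC1954 in 4 of 5, being lost without correction. Of the 28 boundaries with the largest differences, 12 remained called in that line only with the 480-kb window, 14 without correction and 2 under all 5. With that window 27 could be measured, and all 27 had the lowest insulation of the 4 lines in it. That window lies inside the 1-Mb window on which they were picked, so nothing is read from this. Without iterative correction the own insulation was the lowest at 15 of 28. Of these, 12 kept a difference of at least 0.2 and 5 of at least 0.5. The median difference to the lowest other line went from -0.66 to -0.02.

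**Figure D5:**
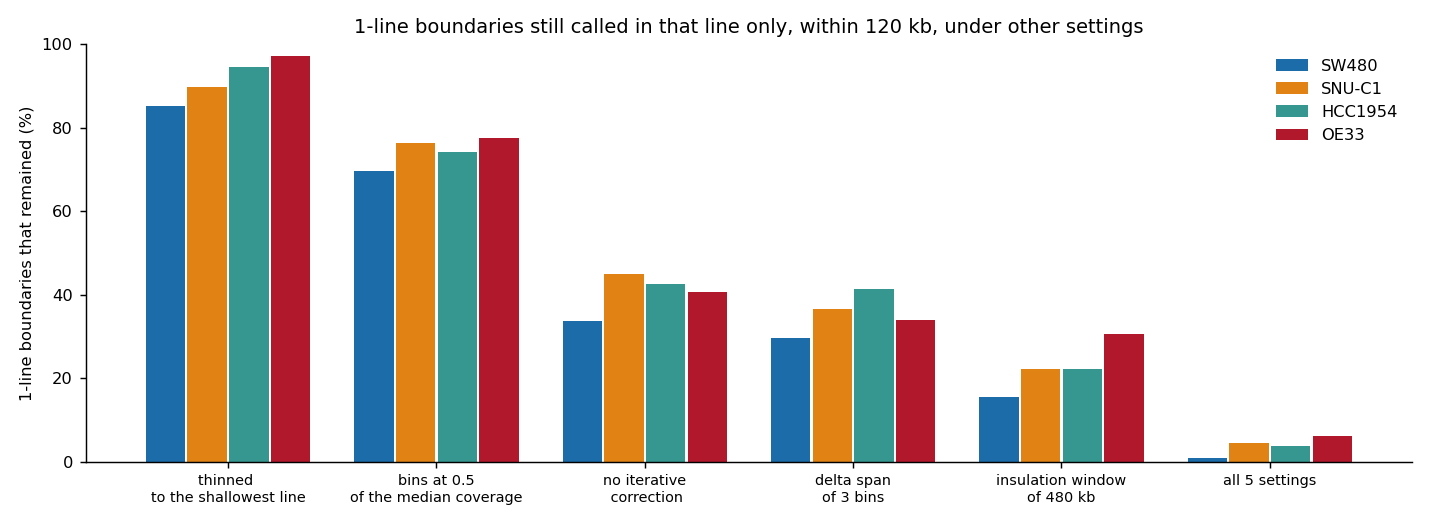
Share in percent (y axis) of 1-line boundaries still called in that line only, within 120 kb, under each of 5 other settings and under all 5 (x axis), with 1 bar for each line. The share falls from 92.1% with thinned read pairs to 23.2% with a 480-kb window over all lines.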

How the data were processed

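Reads of MboI-cut chromatin were mapped by the authors to hg19 (BWA-MEM), cleared of duplicates (Picard) and binned at 40 kb with iterative correction. The deposited signal is the corrected contact frequency of each bin pair. Factors per bin were fitted to it, which gave whole read pairs for depth, coverage, intervals and the uncorrected setting. SW480 maps were corrected within chromosomes and the others over the genome. The methods state that Hi-C was done in duplicate. Whether the SNU-C1, HCC1954 and OE33 maps each combine their duplicates, and software versions and read filters, were not given in the sources used here.

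Bins below 0.25 of the median coverage in any line were left out, and a square needed 50% usable bin pairs. No test was run, since insulation chose the boundaries and SW480 was the only line with replicate maps, whose pool is its line map. Line-specific contacts also needed 10 read pairs, and 0.5 was added before ratios. Genes came from GENCODE lifted to GRCh37. The set and the gene lists were chosen with earlier results of these data known. Named were the 5 strongest boundaries of each line, those within 200 kb of listed gene starts and those nearest to the threshold, and others are marked in the text as chosen after their values were seen. Boundaries at 2 loci that this rule or the largest differences gave are not reported here. Alternatives changed the window, delta span, strength, distance, coverage filter, depth, correction, step size and flank, and the SW480 replicate. Calculations were tested on simulated data. Software was Numba 0.67.0, SciPy 1.17.1, NumPy 2.4.6, PyArrow 21.0.0, pandas 2.3.3, Matplotlib 3.10.9 and Python 3.11.15.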

Additional observations from a re-analysis of the deposited data

How the results depend on the processing

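The distance within which boundaries count as the same set how many were called in 1 line only. At 5 bins there were 74 in SW480, 109 in HCC1954, 98 in OE33 and 424 in all lines. At 10 bins, chosen after seeing the data, there were 67 in SNU-C1, 35 in HCC1954, 33 in SW480, 32 in OE33 and 167 in all, and 90.9% of those of SW480 were called in both replicates. Replicate 1 boundaries of SW480 without one in replicate 2 were 4.40% at 3 bins, 6.03% at 2 bins, 3.07% at 5 bins and 1.32% at 10 bins. The size that counts as a step set the share of boundaries with a coverage step, from 38.3% at 0.2 to 9.62% at 0.5 in log2, and in HCC1954 18.6% at 0.5, whereas without chromosomes 8 and 21, also chosen after seeing the data, HCC1954 had 40.3%. With either SW480 replicate in place of the pool, counts were 203 to 205 in SNU-C1, 176 to 183 in HCC1954, 174 to 179 in OE33, 118 to 129 in SW480 and 678 to 689 in all, and the share with a step 23.4 to 23.8%. The other 84 values moved less than 1.5 times or stayed within their interval, the scaling of every map to the spread of SW480 (added after seeing the data) included. No paired analysis was possible because SW480 alone has replicate numbers in the labels and no result comes from a test. Depth limits single squares, which held 813 to 43201 read pairs in the line with the call.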
